A study of Mus musculus with 2 samples.

Results

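AC-like tumor cells are glioma cells that use genes of astrocytes. Here they were taken as barcodes with at least 2 unique molecular identifiers (UMIs, counts of single captured RNA molecules) of at least 3 of the 4 genes Aqp4, Agt, Mlc1 and Slc6a11. A barcode also had to pass the quality filters, hold at least one part in 3 of its matrix's median UMI count, and carry at most 3 UMIs of C1qa, C1qb and C1qc together and 0 of Opalin. This rule found 2304 of 56943 barcodes, of which 54574 passed the quality filters. The study grew tumors from mGSC, a mouse glioblastoma stem cell line with the genotype Trp53+/- and Nf1+/-, in the brains of C57BL/6J mice, and sequenced single cells of the tumors after daily vehicle or Xevinapant. Every tumor came from this single line, so the tumor cells of both groups, unlike host cells, carried the Trp53 and Nf1 alterations. Xevinapant is a SMAC mimetic, a drug that binds the inhibitor of apoptosis proteins cIAP1, cIAP2 and XIAP. The mice were young females by the study's methods. Each group had 4 tumors and 4 count matrices, but the labels do not state which matrix came from which mouse.

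Astrocytes take up glutamate and GABA from synapses, buffer potassium, move water along their endfeet at blood vessels, and supply lipids to neurons in apolipoprotein E particles. In glioblastoma, an astrocyte-like state is one of a few states among which tumor cells move, beside states that resemble oligodendrocyte precursors (OPC-like), neuronal precursors (NPC-like) and mesenchymal cells (MES-like). Gfap, the astrocyte intermediate filament, is its best known gene. The 4 genes of the rule serve water and ion transport (Aqp4, the water channel, and Mlc1, an endfoot membrane protein), GABA uptake (Slc6a11) and the making of angiotensinogen (Agt).

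The matrices held 4505 to 14728 barcodes with a median of 7452 to 14027 UMIs. Matrices of a group that were nearly alike in an earlier analysis of these data were joined. These were vehicle 1 and 3, Xevinapant 1 and 2, and Xevinapant 3 and 4. In the AC-like cells they gave chi-square values, divided by the degrees of freedom, from 2.72 to 4.80. The other 9 pairs gave 7.08 to 21.8. All of these values are above 1, so the joined matrices still differed by more than counting error. The value rises with the UMIs of a pair, which was not corrected for. Xevinapant 1 and 2 had the fewest AC-like UMIs of all matrices (2666720 and 3032716). Their low value therefore does not show that they were more alike than deeper pairs. The joins left 3 vehicle samples (A from matrices 1 and 3, B from 2, C from 4) and 2 Xevinapant samples (A from 1 and 2, B from 3 and 4). Since each group had as many matrices as tumors, counts of calls with each matrix taken as 1 mouse are given too. With 3 samples against 2, the smallest p of the two-sided exact permutation test used here, 2 times the one-sided p, is 0.2. Separate culture or litter is not stated, so p-values measure the spread between these samples. The groups were also prepared as 2 pools with different batch dates and different labelled RNA (total RNA for vehicle, polyA RNA for Xevinapant), so treatment and pool cannot be told apart. In each group 14.9 to 15.6% of droplets (the first 16 bases of a barcode) held barcodes of more than 1 matrix. Of the AC-like cells 659 lay in such droplets, 393 of 1315 with vehicle and 266 of 989 with Xevinapant. Such a droplet holds more than 1 barcode, so the share of droplets cannot be set against this share of cells. The share over all barcodes was not measured. No full barcode was shared within a group.

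Of the 2304 cells, 1191 carried all 4 markers and 1113 carried 3. The marker below 2 UMIs was most often Aqp4 (565 cells) or Agt (437 cells), and seldom Slc6a11 (62 cells) or Mlc1 (49 cells). Cells just inside the rule, with 3 markers, had a median of 26 UMIs of the 4 genes together. Cells with 4 markers had a median of 75. The 2078 barcodes just outside, with 2 markers, had a median of 11, mostly of Slc6a11 (median 6) and Mlc1 (median 3), with a median of 0 for Aqp4 and Agt. AC-like cells had more UMIs than the other tumor cells, with medians of 16850 to 24228 against 11881 to 17944 per sample. These other tumor cells, 26250 in all, had at most 1 of the 4 markers and UMIs of at least 3 tumor glial genes, 0 of Ptprc, at most 1 of endothelial and at most 3 of fibroblast genes. The choice of cells favors this direction, since AC-like cells needed marker UMIs and the other tumor cells were limited in them. Barcodes with 2 markers had a median of 22599 UMIs, against 19734 in AC-like cells with 3 and 23175 with 4. The difference in UMIs is therefore no result about the AC-like state.

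The promoters of Gfap, the best known gene of the state, and of Agt and Mlc1, which chose the cells, are shown as the sequence context of these 3 genes. Each is the stretch of 250 bases before the RefSeq start site in the GRCm38.p6 table, on the minus strand, 5′ to 3′. Capitals mark 2 motifs searched on both strands: TTGGC, the half-site of nuclear factor I proteins, and TTCNNNGAA, the palindrome of STAT proteins. The first occurred in 41.5% and the second in 7.0% of the 32851 promoter windows of the same length, so the half-site is common anywhere. Agt held 1 of each, Mlc1 held 1 half-site, and Gfap held neither in this window.
Gfap, chr11:102897201-102897450: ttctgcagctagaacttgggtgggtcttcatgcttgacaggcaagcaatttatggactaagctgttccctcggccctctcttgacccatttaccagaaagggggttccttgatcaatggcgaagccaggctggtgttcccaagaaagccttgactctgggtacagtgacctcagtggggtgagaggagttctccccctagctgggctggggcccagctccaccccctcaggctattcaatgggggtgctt
Agt, chr8:124569707-124569956: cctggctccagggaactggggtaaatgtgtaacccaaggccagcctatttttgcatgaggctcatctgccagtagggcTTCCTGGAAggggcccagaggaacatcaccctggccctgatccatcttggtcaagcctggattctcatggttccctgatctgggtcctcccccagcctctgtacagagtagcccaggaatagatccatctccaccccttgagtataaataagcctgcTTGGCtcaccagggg
Mlc1, chr15:88978554-88978803: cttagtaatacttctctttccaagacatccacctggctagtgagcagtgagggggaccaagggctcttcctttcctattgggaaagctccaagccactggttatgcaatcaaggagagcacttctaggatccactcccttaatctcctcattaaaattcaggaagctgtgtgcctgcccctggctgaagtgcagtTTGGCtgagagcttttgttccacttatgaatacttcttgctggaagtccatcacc

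AC-like cells carried the genes the rule used at high levels, which describes the choice and is no result. Levels are given as CPM, the gene's UMIs scaled to a total of 1000000 UMIs, summed over the cells of a class in a sample. Aqp4 was at 462, 404 and 866 CPM in the vehicle samples and 501 and 558 in the Xevinapant samples, against 2.18 to 6.08 in the other tumor cells. The highest Aqp4 level was in vehicle C. Agt was at 695, 768 and 559 CPM in the vehicle samples and 649 and 1073 in the Xevinapant samples, against 3.07 to 8.25. Mlc1 was at 524, 569 and 484 CPM in the vehicle samples and 507 and 605 in the Xevinapant samples, against 5.88 to 9.31. Agt and Mlc1 were both highest in Xevinapant B. Slc6a11 was at 679, 706 and 655 CPM in the vehicle samples and 782 and 725 in the Xevinapant samples, against 37.2 to 89.9. In Slc6a11 the gap to the other tumor cells was the smallest of the 4 genes.

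The label was then held against genes the rule did not name. Since all genes come from the same chosen cells, these values are a description without a test, and errors of log2 ratios are the SD over the 5 samples (n = 5). Gfap was at 1851, 1783 and 1722 CPM in the vehicle samples and 2409 and 3402 in the Xevinapant samples, and at 37.3 to 131 CPM in the other tumor cells, a difference of 27.5-fold (log2 ratio 4.78 ± 0.47). Id4, an inhibitor of basic helix-loop-helix factors, was at 466, 665 and 564 CPM in the vehicle samples and 568 and 571 in the Xevinapant samples against 27.8 to 37.6, a difference of 17.6-fold (log2 ratio 4.14 ± 0.25). Clu, the secreted chaperone clusterin, was at 991, 733 and 1208 CPM in the vehicle samples and 1499 and 1555 in the Xevinapant samples against 32.8 to 149, a difference of 17.4-fold (log2 ratio 4.12 ± 0.52). In each of these 3 genes the lowest AC-like sample lay above the highest sample of other tumor cells. After every cell was thinned to 5000 UMIs, 76.9% ± 7.53 (SD, n = 5) of AC-like cells had a Gfap UMI, against 18% ± 5.999 of other tumor cells and 25% ± 8.90 of myeloid barcodes, which should lack the gene. For Id4 the shares were 76.9%, 11.4% and 13.1%. The shares in other tumor cells are thus near the background in myeloid barcodes (median 11646 to 17552 UMIs before thinning) and were not read as expression.

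**Figure D1:**
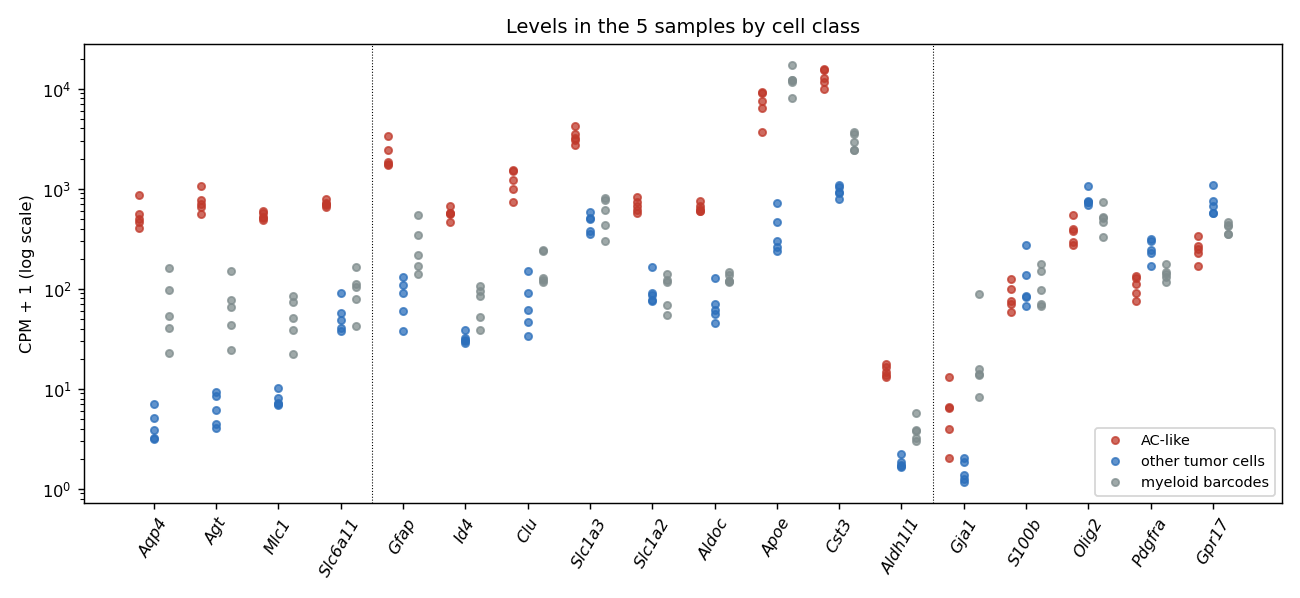
Levels of genes in AC-like cells, other tumor cells and myeloid barcodes, in CPM + 1 on a log scale, with 1 point per sample (n = 5 per class). The first 4 genes chose the cells. The points of the AC-like class lie above both other classes from Gfap to Aldoc and for Cst3 and Aldh1l1, while Apoe is higher in myeloid barcodes, and from Gja1 to Gpr17 the AC-like points lie below or among those of another class.

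Of the 11128 genes with at least 5 CPM in either class, 476 (4.28%) were at least 2-fold higher in AC-like than in other tumor cells in every sample and 31 (0.279%) at least 2-fold lower. Without the barcodes of the highest doublet scores these counts were 525 and 182. Among 36 astrocyte identity genes, 22 of 30 at this level were higher by that measure and 0 lower, with a median log2 ratio of 2.54. They included the glutamate transporters Slc1a3, at 2712 to 4277 CPM against 348 to 582, and Slc1a2, at 575 to 832 against 73.8 to 166. The level of the brain aldolase Aldoc was 9.52-fold (log2 ratio 3.25 ± 0.49) that in other tumor cells, and Itih3 22.6-fold (log2 ratio 4.50 ± 0.30).

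Of the list of 20 genes for uptake and metabolism of glutamate, GABA and glycine, 8 of 13 at the level limit were at least 2-fold higher in every sample, with the rule gene Slc6a11 left out. They included Slc1a3 and Slc1a2, as given above, Glul, which makes glutamine from glutamate (3.71-fold, log2 ratio 1.89 ± 0.25), Glud1, glutamate dehydrogenase (4.20-fold, log2 ratio 2.07 ± 0.10), Abat, which breaks down GABA (3.96-fold, log2 ratio 1.99 ± 0.12), the mitochondrial glutamate carrier Slc25a18 (8.03-fold, log2 ratio 3.01 ± 0.14) and the glycine transporter Slc6a9 (2.38-fold, log2 ratio 1.25 ± 0.17).

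In the list of 21 water, ion and junction genes, 8 of 16 were higher by the same measure, with the rule genes Aqp4 and Mlc1 left out. They included the sodium pump subunits Atp1b1 (6.06-fold, log2 ratio 2.60 ± 0.12) and Atp1b2 (5.95-fold, log2 ratio 2.57 ± 0.35), the potassium channels Kcnj10 (3.59-fold, log2 ratio 1.84 ± 0.29) and Kcnj16 (9.74-fold, log2 ratio 3.28 ± 0.49) and the Mlc1 partner Hepacam (15-fold, log2 ratio 3.91 ± 0.62). Gap junction genes of mature astrocytes were at low levels. Gjb6 averaged 0.00910 CPM. Gja1 averaged 5.40 CPM in AC-like cells and 543 CPM in endothelial barcodes, and 0.957% of thinned AC-like cells had a Gja1 UMI.

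Some other members of the astrocyte list were at low levels or not higher. Aldh1l1, a folate enzyme and pan-astrocyte marker, was at 8.28-fold (log2 ratio 3.05 ± 0.30) the level of other tumor cells but averaged 14.2 CPM, with a UMI in 5.95% of thinned AC-like cells. S100b, a calcium-binding glial protein, was at 98.2, 74.7 and 69.6 CPM in the vehicle samples and 125 and 58.2 in the Xevinapant samples against 66.6 to 275 in the other tumor cells (log2 ratio -0.44 ± 0.46, SD, n = 5), so it was not higher in AC-like cells. The glypican Gpc5 averaged 0.184 CPM.

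Among 36 glial transcription factors, 11 of 32 at the level limit were at least 2-fold higher in every sample, or 11 of 31 without Sox2, which was among the genes that chose the other tumor cells. They included Id4, Id3 (13-fold, log2 ratio 3.70 ± 0.47) and Id1 (5.74-fold, log2 ratio 2.52 ± 0.31), targets of BMP signals, and Hopx (7.86-fold, log2 ratio 2.98 ± 0.45). Sox9 (0.46), Nfia (0.43) and Nfib (0.08), all regulators of glial fate, had lower log2 ratios, all under 1. Of 29 Notch and BMP genes, 11 of 28 were higher and 2 lower. Among the higher were the receptor Notch3, 7.98-fold (log2 ratio 2.996 ± 0.38), its targets Hes5 4.03-fold (log2 ratio 2.01 ± 0.39) and Hey1 3.71-fold (log2 ratio 1.89 ± 0.19), and the BMP receptor Bmpr1b 5.29-fold (log2 ratio 2.40 ± 0.35). The Notch ligands Dll1 and Dll3 had log2 ratios of -1.32 ± 0.28 and -1.48 ± 0.22.

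The lipid list held 33 genes, of which 6 of 29 were higher, or 5 of 28 without Fabp7, one of the tumor glial genes that chose the other tumor cells. Apoe, the lipoprotein of astrocytes and macrophages, was at 6347, 7527 and 3665 CPM in the vehicle samples and 8970.2 and 9288 in the Xevinapant samples against 238 to 713, with vehicle C lowest. Myeloid barcodes held 8066 to 17297 CPM of it. Abca1, the cholesterol exporter, was higher by 4.53-fold (log2 ratio 2.18 ± 0.27), and Fabp7, the fatty acid carrier of radial glia, 4.63-fold (log2 ratio 2.21 ± 0.27). Of the genes of cholesterol synthesis, Hmgcs1 was higher by 2.49-fold (log2 ratio 1.31 ± 0.20), whereas Sqle (0.19) and Srebf2 (0.10) had log2 ratios near 0.

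Of 40 reactive astrocyte genes, 13 of 28 were higher by the same measure. They included the matrix glycoprotein Tnc (9.06-fold, log2 ratio 3.18 ± 0.47), the pentraxin Ptx3 (8.73-fold, log2 ratio 3.13 ± 0.90), the hyaluronan receptor Cd44 (3.56-fold, log2 ratio 1.83 ± 0.14) and Lcn2, lipocalin (13.1-fold, log2 ratio 3.71 ± 0.77). Lcn2 varied widely between samples, at 50.7, 31.6 and 14.3 CPM in the vehicle samples and 228 and 82.9 in the Xevinapant samples. Vim (0.81) and Nes (-0.01), intermediate filament genes, had lower log2 ratios. Of the MES-like list 4 of 17 were higher, among them Cd44, S100a11 (4.96-fold, log2 ratio 2.31 ± 0.45) and Emp3 (3.47-fold, log2 ratio 1.79 ± 0.15). The list median was 0.94, and 0.58 when AC-like cells also had to meet the limits of the other tumor cells on other cell types' genes. The list summed to 5269 to 7222 CPM in AC-like cells, 5060 to 10203 in myeloid and 8207 to 11759 in endothelial barcodes.

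By size alone, among genes at a mean of 50 CPM or more in AC-like cells and outside the genes that chose or limited a class, the highest ratios were those of Islr (36.9-fold, log2 ratio 5.20 ± 0.46), Gfap, Rarres1 (25-fold, log2 ratio 4.64 ± 0.38), Gdpd2 (24-fold, log2 ratio 4.58 ± 0.10), Tagln (20.8-fold, log2 ratio 4.38 ± 0.17), Lfng, a Notch-modifying enzyme (20.2-fold, log2 ratio 4.34 ± 0.49), and S1pr1, a sphingosine phosphate receptor (19.1-fold, log2 ratio 4.26 ± 0.26). Below them came Apoe, Id4, Clu, Hspb8, Hepacam, Cst3, Art3, Lcn2, Pla2g7, Id3, Igfbp7, Eepd1 and Daam2, with log2 ratios from 3.63 to 4.22. Igfbp7 is an endothelial gene at 3633 CPM in endothelial barcodes. When the limits on Ptprc, endothelial and fibroblast genes that the other tumor cells had to meet were put on the AC-like cells too, its log2 ratio went from 3.68 to 0.38. For the other 19 genes the ratio stayed between 3.59 and 5.21.

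By the same rule, with 50 CPM or more in the other tumor cells, the lowest ratios were those of Insm1 (-1.79 ± 0.82), Myt1, Gpr17, Neu4, Grik3, Plppr3, Dll3, Slc1a1, Dok7 and Dcx, with log2 ratios of -1.79 to -1.40. Gpr17 is a receptor of committed oligodendrocyte precursors, and Dcx encodes doublecortin of young neurons. Of the NPC-like list, 1 of 15 genes at the level limit was at least 2-fold lower in every sample and 0 higher, with a median log2 ratio of -0.63. The 18 OPC-like genes had a median log2 ratio of -1.02, with 1 gene at least 2-fold lower in every sample. Without 6 of them that chose the other tumor cells, the median was -1.03 over 12 genes. Olig2, a master factor of the lineage and one of these 6, averaged 377 CPM in AC-like cells, 798 in other tumor cells and 515 in myeloid barcodes. Pdgfra, the PDGF receptor of OPCs, averaged 107, 250.01 and 142 CPM. Only 3 of the 18 genes were above the myeloid barcodes in every sample, whereas 31 of 35 measured astrocyte genes were. The endothelial barcodes lay lower, with a sum over the list of 3426 to 4490 CPM against 5703 to 6857 in AC-like cells. After thinning, a Pdgfra UMI was seen in 29.1% ± 4.81 (SD, n = 5) of AC-like cells, 27.5% ± 5.59 of myeloid and 16.2% ± 8.49 of endothelial barcodes. Whether the OPC-like genes were expressed in AC-like cells was not tested.

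Markers of other cell types were measured over whole lists. The 14 measured myeloid markers summed to 87.8 to 110 CPM in vehicle and 95 to 155 in Xevinapant AC-like cells, beside 69.2 to 143 in other tumor cells. The 9 measured endothelial markers summed to 75.7 to 118 CPM in vehicle and 33.7 to 44.9 in Xevinapant, beside 20.1 to 32.4. The fibroblast markers summed to 273 to 1069 and 196 to 1244 CPM, beside 168 to 289. With the limits of the other tumor cells applied, the endothelial sums were 19.7 to 25.4 and 18.8 to 23.5 CPM. Pericyte and mural markers summed to 371 to 567 CPM, beside 38.4 to 57.3, and to 333 to 463 under the limits. Most of that sum was Notch3 (mean 339 CPM), while Rgs5, a pericyte gene, went from a log2 ratio of 3.57 to 0.02 under the limits. Tagln, one of the genes of the highest ratios, is a smooth muscle gene and averaged 305 CPM in endothelial barcodes. Neuron markers summed to 16 to 32.8 CPM, and T, NK and B cell markers to 1.28 to 2.97. The part of these other cell types in the ratios above was not tested beyond the limits.

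Expression by chromosome was compared with that of the other tumor cells. For 7994 genes, the mean log2 ratio to the myeloid barcodes of the same sample was taken per chromosome, centred on all genes. AC-like cells were lowest on chromosome 4 (-0.17 ± 0.09, SD, n = 5) and the other tumor cells too (-0.16 ± 0.06). Chromosome 10 (-0.12 and -0.07), 16 (-0.12 and -0.08) and 19 (-0.12 and -0.10) were low in both classes, and 14 (0.10 and 0.07) and 15 (0.07 and 0.08) were high in both. The profiles had the same sign on 17 of 20 chromosomes and a Pearson r of 0.87 across chromosomes, which share one reference and the same libraries. The widest gap, 0.10, was on chromosome 3. A score per cell, the UMIs on the 4 highest over those on the 4 lowest chromosomes of the other tumor cells, put 89 to 97.3% of AC-like cells per sample on the tumor side of the midpoint between other tumor cells and myeloid barcodes. It put 84.9 to 92.3% of other tumor cells, 20 to 35.8% of the scored myeloid and 14.3 to 23.3% of the scored endothelial barcodes there. In every sample only part of these 2 reference classes was scored, but all AC-like and other tumor cells were. In vehicle C, 375 of 613 myeloid and 30 of 43 endothelial barcodes were scored, beside all 738 AC-like cells. What the barcodes left out would change was not tested. By this score the AC-like cells fell with the other tumor cells. Its chromosomes and midpoint were set from the other tumor cells and myeloid barcodes themselves, and no normal astrocytes were scored. It therefore cannot tell AC-like tumor cells from normal astrocytes, and tumor origin was not tested. Expression profiles by chromosome are also not a measure of DNA copies.

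**Figure D2:**
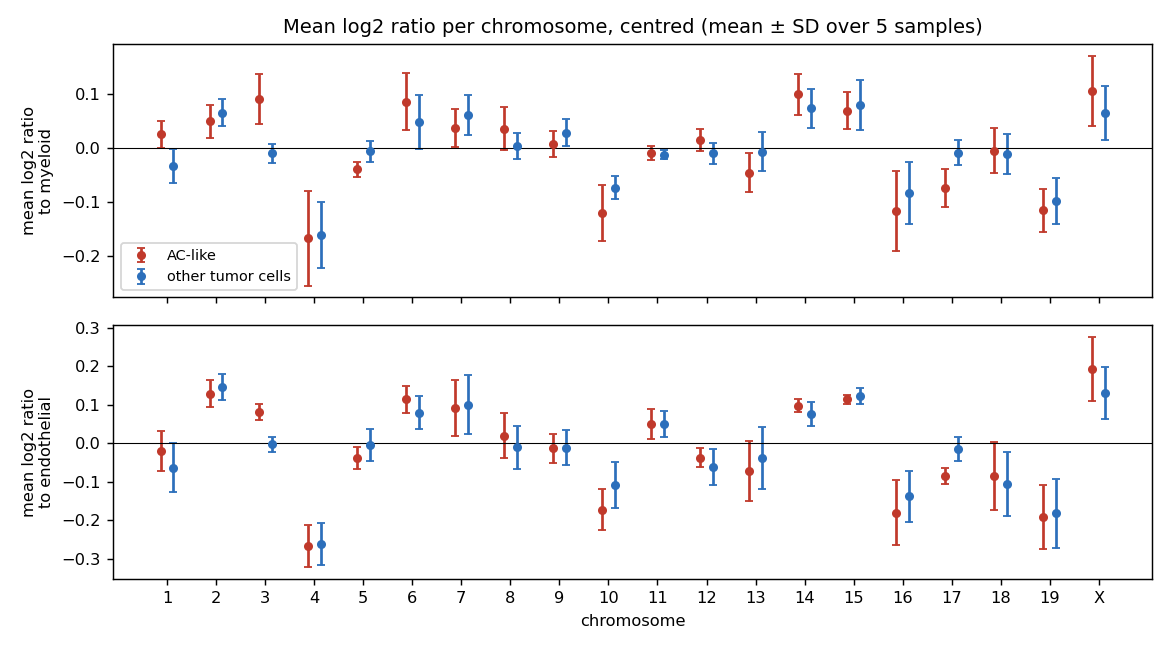
Mean log2 ratio of expression per chromosome in AC-like cells and other tumor cells, to myeloid barcodes (top) and endothelial barcodes (bottom), with points as means and bars as SD over 5 samples. In both panels chromosome 4 lies lowest in both classes, and the classes lie close together on most chromosomes.

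The genes altered in the line were measured next. Trp53 was at 212, 238 and 186 CPM in the vehicle samples and 228 and 201 in the Xevinapant samples in AC-like cells, below the other tumor cells of the same sample in every case (log2 ratio -0.35 ± 0.14, SD, n = 5). Nf1 was at 169, 169.96 and 141 CPM in the vehicle samples and 151 and 157 in the Xevinapant samples, close to the other tumor cells (-0.09 ± 0.15). Together the 2 genes summed to 327 to 408 CPM in AC-like cells, 306 to 349 in myeloid and 303 to 357 in endothelial barcodes, and whether they were expressed in AC-like cells was not tested. Counts per gene do not separate the altered from the intact allele.

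AC-like cells differed widely among themselves in Gfap. After thinning to 5000 UMIs, the median AC-like cell held 4, 2 and 3 Gfap UMIs in the vehicle samples and 5 and 8 in the Xevinapant samples. The highest cell of each sample held 117 to 328. Cells without a Gfap UMI made up 20.7, 33.2 and 28.2% of vehicle and 19.4 and 14.2% of Xevinapant AC-like cells. Cells with 20 UMIs or more made up 18.8, 12.7 and 17.8% and 19.9 and 28.2%. Gfap had a Fano factor (variance over mean, averaged over samples) of 38, against a median of 1.19 over the 2554 genes at 0.5 UMIs or more per cell. Cst3, the protease inhibitor cystatin C, had 62.6, Apoe 59.8, Igf2 41.1 and Cd81 20.7. The factor rises with the mean, which was 12.9 UMIs for Gfap, 79.7 for Cst3, 43.9 for Apoe, 106 for Igf2 and 64.9 for Cd81, so these genes cannot be ranked by it. The other 5 of the 10 highest, Mgp, Col1a1, Lcn2, Hspa1b and Ier5l, had means under 1 UMI, and some rested on single samples, such as Mgp with 245 in vehicle A and 11.2 at most elsewhere.

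**Figure D3:**
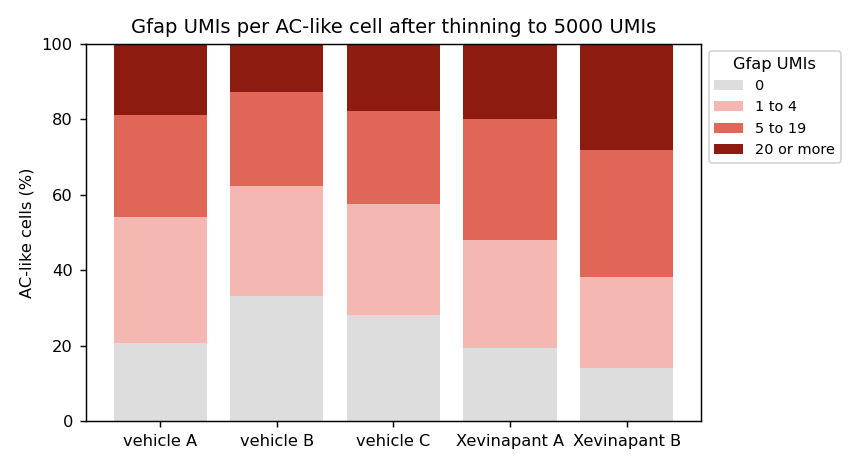
Share of AC-like cells by their Gfap UMI count after thinning to 5000 UMIs, stacked to 100% per sample, for cells with at least 5000 UMIs. All 4 classes of count occur in every sample, and Xevinapant B holds the largest share of cells with 20 UMIs or more and the smallest without any.

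The first comparison asks whether the share of AC-like cells differs after Xevinapant. AC-like cells made up 6.51, 4.996 and 8.33% of tumor cells in the vehicle samples and 6.48 and 9.46% in the Xevinapant samples. The denominator was the AC-like cells plus all barcodes within the limits of the other tumor cells, whatever their marker number. The groups overlapped. The mean was 6.61% ± 1.67 (SD, n = 3) with vehicle and 7.97% ± 2.10 (SD, n = 2) with Xevinapant, a difference of 1.36 percentage points (exact two-sided permutation test, p = 0.6). With each matrix as 1 mouse the difference was 1.39 points (exact p = 0.257). Of all barcodes past the quality filters the difference had the other sign, with 4.07% ± 0.964 and 3.78% ± 1.78 (exact p = 0.8). Without Xevinapant B the first difference was -0.128 points. Single matrices ran from 4.996% (exact 95% binomial interval 4.39 to 5.66) to 9.54% (8.67 to 10.5), and these intervals cover counting error only.

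The marker part of the rule was also met by other barcodes. Among myeloid barcodes, chosen for at least 10 C1q UMIs, 2.12 to 12.6% per sample had 3 of the 4 markers at 2 UMIs or more, and among endothelial barcodes 3.51 to 11.8%. The AC-like share of tumor cells lay within this range, and how much of it comes from barcodes with RNA of more than 1 cell was not tested. The summed level of the 4 markers was 108 to 481 CPM in myeloid barcodes against 2360.4 to 2960.3 in AC-like cells. Barcodes with the highest doublet scores made up 3.57 to 20.7% of AC-like and 1.85 to 7.35% of other tumor cells per sample, most in vehicle C. Without them the shares were 6.04% ± 1.33 and 7.70% ± 1.87. After thinning every cell to 5000 UMIs, fewer cells met the rule, 3.61% ± 0.757 and 4.27% ± 0.898, of the same deep cells that gave 6.80 and 8.45% before thinning.

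**Figure D4:**
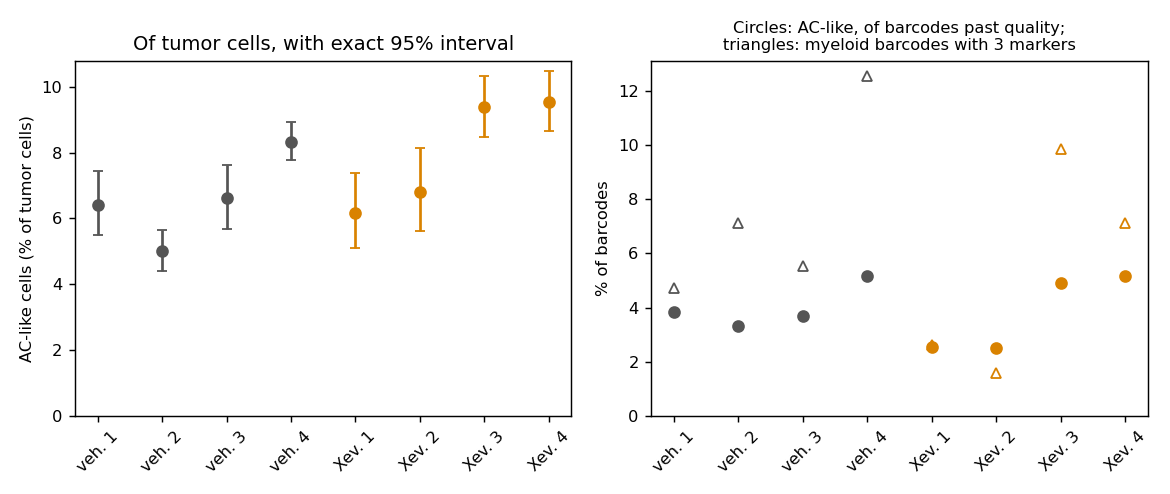
Share of AC-like cells by matrix. Left, percent of tumor cells with the exact 95% binomial interval. Right, percent of barcodes past the quality filters (circles) beside the percent of myeloid barcodes that meet the marker part of the rule (triangles). The vehicle (grey) and Xevinapant (orange) matrices overlap on both scales, and in 7 of 8 matrices the triangle lies at or above the circle.

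For gene levels, UMIs were summed over the AC-like cells of each sample and tested with edgeR's quasi-likelihood test. Of 12348 genes tested, 0 (0.0%) passed a Benjamini-Hochberg adjusted p of 0.05, with 1631 at an unadjusted p under 0.05 (768 higher and 863 lower with Xevinapant). DESeq2 on the same sums called 311 (133 higher, 178 lower). With each matrix taken as 1 mouse, edgeR called 668 of 11722 (5.7% of genes, 308 higher, 360 lower). The values that follow are therefore differences that did not pass the test over 5 samples, each as a log2 fold change, Xevinapant over vehicle, ± SE. Both Xevinapant samples lay above all vehicle samples in 15.5% of all genes tested and below them in 16.9%, which is the background for each count of members that did not overlap. Bulk sums of this kind cannot tell fewer expressing cells from less RNA per cell.

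None of the genes of the drug's targets passed the test. Birc2, which encodes cIAP1, was at 34.8, 31.8 and 34.3 CPM in the vehicle samples and 32.6 and 42 in the Xevinapant samples after TMM scaling (log2 fold change 0.16 ± 0.15, edgeR adjusted p = 0.701). Birc3, which encodes cIAP2, was at 10, 8.65 and 12.7 CPM in the vehicle samples and 13.5 and 13.8 in the Xevinapant samples (log2 fold change 0.37 ± 0.23, edgeR adjusted p = 0.537). Xiap was at 29.3, 17.5 and 28.2 CPM in the vehicle samples and 15.4 and 18.7 in the Xevinapant samples (log2 fold change -0.55 ± 0.25, edgeR adjusted p = 0.396). Of these 3 genes Birc3 alone had no overlap between groups, and its change was 0.11 with sums thinned to the lowest total and 0.19 with the limits of the other tumor cells applied. In the IAP list 1 of 6 genes tested was higher and 1 lower without overlap, with a median log2 fold change of 0.01 against -0.0005 over all genes. Of 35 death receptor, caspase and BCL2 genes 5 were higher and 3 lower (median 0.07), and of 25 NF-kB genes 12 and 1 (median 0.29). With each matrix as 1 mouse, the calls were 1 lower in the IAP list (Birc5, a mitosis gene) and 2 higher in each of the other two. Of 30 NF-kB genes, 6 were above the myeloid barcodes in every sample, and myeloid cells can express such genes themselves. The NF-kB median was 0.11 in other tumor cells and 0.24 in myeloid barcodes. As examples picked from the lists, the values were 0.44 ± 0.11 for the NF-kB inhibitor Nfkbia and 0.43 ± 0.11 for the anti-apoptotic Mcl1, both without overlap. The counts of the list that holds Mcl1 were not above the background of 15.5% higher and 16.9% lower, so Mcl1 does not stand for that list.

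No astrocyte gene passed the test over 5 samples either. Gfap was at 1818, 1774 and 1734 CPM in the vehicle samples and 2432 and 3438 in the Xevinapant samples, without overlap (log2 fold change 0.73 ± 0.17, edgeR adjusted p = 0.203), and the change was 0.45 without Xevinapant B and 0.95 without Xevinapant A. Clu was at 973, 729 and 1217 CPM in the vehicle samples and 1514 and 1571 in the Xevinapant samples, without overlap (log2 fold change 0.66 ± 0.20, edgeR adjusted p = 0.259). Other settings called Gfap, with an adjusted p of 0.00077 by DESeq2 and, by edgeR, of 0.0332 without the low-count filter and 0.018 with each matrix as 1 mouse. For Clu these adjusted p were 0.0368, 0.0692 and 0.0244. Id4 (log2 fold change 0.03 ± 0.16), Mlc1 (0.10 ± 0.13), Aqp4 (-0.11 ± 0.31) and Agt (0.38 ± 0.22) overlapped between groups, and Slc6a11 (0.17 ± 0.11) did not. Cells were chosen on the last 4. In the astrocyte list 16 of 33 genes tested were higher and 2 lower without overlap (median 0.28, and 0.15 in the other tumor cells). Without the rule genes, these counts were 5 and 0 of 16 among the transmitter genes, and 5 and 2 of 17 among the water and ion genes. With each matrix as 1 mouse, 6 astrocyte and 2 transmitter genes were called higher and 0 lower. The lower ones in the astrocyte list were Gja1, which was highest in endothelial barcodes, and the claudin Cldn10.

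The reactive astrocyte list had a median above that of all genes. Of 36 tested, 18 were higher and 0 lower without overlap, and the median was 0.71. None passed over the 5 samples, and 6 were called higher with each matrix as 1 mouse. Of the 40 genes of the list, 17 were above the myeloid barcodes in every sample. The list summed to 8622 to 9829 CPM in vehicle and 11369 to 12935 in Xevinapant AC-like cells, against 3385 to 5067 in other tumor cells. It summed to 4917 to 7505 CPM in myeloid barcodes, a cell type that can express such genes too. In endothelial barcodes it summed to 8200 to 12279 CPM, so sums near those of AC-like cells were not particular to them. Serpina3n, a protease inhibitor of reactive astrocytes, was at 279, 232 and 207 CPM in the vehicle samples and 485 and 563 in the Xevinapant samples (log2 fold change 1.13 ± 0.15, edgeR adjusted p = 0.111). Timp1 was at 16.2, 18.5 and 19.4 CPM in the vehicle samples and 48.5 and 35.2 in the Xevinapant samples (log2 fold change 1.20 ± 0.18, edgeR adjusted p = 0.116), and Cd44 at 152, 133 and 159 CPM in the vehicle samples and 265 and 239 in the Xevinapant samples (log2 fold change 0.77 ± 0.12, edgeR adjusted p = 0.124). Lcn2 (log2 fold change 2.31 ± 0.54) spread widely within the groups. These examples were named after their values were seen. The same list had a median of 0.70 in the other tumor cells and of 0.49 in the myeloid barcodes, so the median was above 0 in all 3 classes. Immediate early genes, which also rise during tissue dissociation, were higher without overlap in 18 of 28 and lower in 1 (median 0.72, beside 0.91 in other tumor cells and 0.84 in myeloid barcodes). Of these 28, 11 were called higher with each matrix as 1 mouse, and 10 were above the myeloid barcodes in every sample. The values were 1.35 ± 0.26 for Fos and 1.18 ± 0.21 for Gadd45b.

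Of 18 MES-like genes tested, 9 were higher and 0 lower without overlap (median 0.54, beside 0.93 in other tumor cells), and 6 of 19 were above the myeloid barcodes in every sample. The median was 0.35 without Xevinapant A and 0.35 without the highest doublet scores. Hypoxia genes were mixed, with 7 higher and 6 lower of 43 (median -0.01, beside 0.24), and the median was 0.21 with the limits of the other tumor cells applied, -0.18 without Xevinapant A and 0.15 without Xevinapant B. Interferon response genes had 9 higher and 0 lower of 43 (median 0.46, but 0.13 without vehicle B, 0.75 without vehicle A, 0.23 without the highest doublet scores and 0.22 with the limits applied), with 5 of 43 above the myeloid barcodes in every sample. Their summed level was 3900.04, 1344 and 3316 CPM in the vehicle samples and 3429 and 3813 in the Xevinapant samples, so vehicle B alone was low. In other tumor cells of vehicle B it was also the lowest, at 843 CPM. OPC-like genes had 2 higher and 5 lower of 18 (median -0.18, and -0.0073 without Xevinapant B). With each matrix as 1 mouse, the calls were 4 MES-like and 2 interferon genes higher, 2 hypoxia genes higher and 3 lower, and 4 OPC-like genes lower.

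The 5 genes of smallest p all had an edgeR adjusted p of 0.111 over the 5 samples. Other settings called all 5, with adjusted p from 6.6e-14 to 1.04e-06 by DESeq2 and, by edgeR, from 0.00097 to 0.0024 without the low-count filter and from 0.0036 to 0.0368 with each matrix as 1 mouse. Kif11, a motor of the mitotic spindle, was at 71, 65 and 73.1 CPM in the vehicle samples and 34.5 and 31.9 in the Xevinapant samples (log2 fold change -1.08 ± 0.12). Plk1, a mitotic kinase, was at 133, 128 and 129.9 CPM in the vehicle samples and 71.7 and 67.2 in the Xevinapant samples (log2 fold change -0.91 ± 0.11), and the histone gene H2afx at 454, 434 and 449.9 CPM in the vehicle samples and 239 and 247 in the Xevinapant samples (log2 fold change -0.88 ± 0.11). Ptges, prostaglandin E synthase, was at 10, 13.1 and 11.5 CPM in the vehicle samples and 30.3 and 32 in the Xevinapant samples (log2 fold change 1.44 ± 0.18). Adgrl4, an endothelial receptor at 643 CPM in endothelial barcodes, was at 12.3, 8.30 and 8.22 CPM in the vehicle samples and 1.42 and 1.11 in the Xevinapant samples (log2 fold change -2.97 ± 0.38), beside the endothelial marker sums above, which were lower with Xevinapant too. Under the limits of the other tumor cells Adgrl4 had too few counts for this treatment test. The difference of its treatment effect between AC-like and other tumor cells could be fitted. It was -3.14 ± 0.58 (SE, edgeR adjusted p = 0.371), and -0.46 ± 0.69 under the limits (edgeR adjusted p = 0.884). The part of endothelial RNA in the Adgrl4 result was not tested further. In none of these 5 did the groups overlap.

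**Figure D5:**
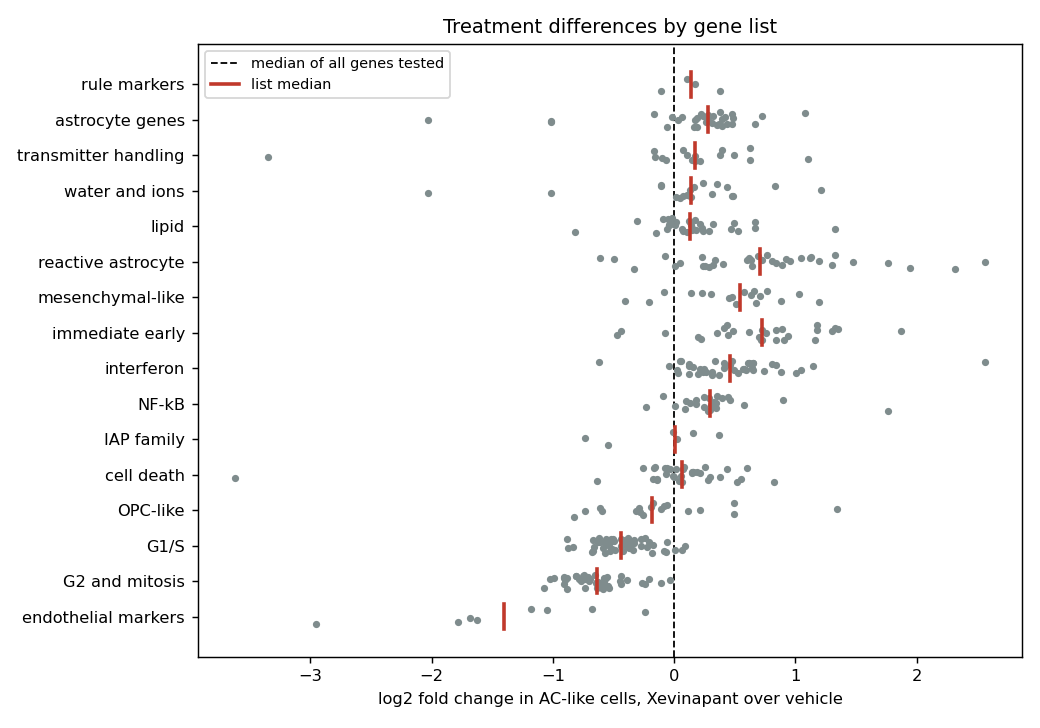
Log2 fold change in AC-like cells, Xevinapant over vehicle, for each gene tested of 16 lists (grey points, spread vertically for view only), with the list median (red) and the median of all 12348 genes tested (dashed line, at -0.0005). The medians of the astrocyte, reactive, mesenchymal-like, immediate early, interferon and NF-kB lists lie furthest to the right of that line. Those of the rule marker, transmitter, water and ion, lipid and cell death lists lie less far to the right, and that of the IAP family is at 0.01. The medians of OPC-like, G1/S, G2 and mitosis and endothelial genes lie to the left of the line.

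Cell cycle genes had medians below that of all genes, without passing the test over 5 samples, and at sums below those of myeloid barcodes of the same group. Of 47 G2 and mitosis genes 43 were lower and 0 higher without overlap (median -0.64), and of 50 G1/S genes 35 and 0 (median -0.44). With each matrix as 1 mouse, 29 and 14 of them were called lower. The G2 and mitosis genes summed to 5265, 4749 and 5758 CPM in vehicle and 3532 and 3092 in Xevinapant AC-like cells. In other tumor cells they summed to 9137 to 10127 and 6849 to 7913, and in myeloid barcodes to 6754 to 7780.2 and 4655 to 6113. Thus 0 of 47 genes were above the myeloid barcodes in every sample. A cell was called cycling with UMIs of at least 5 different G2 and mitosis genes or 10 different G1/S genes after thinning to 5000 UMIs, which left out 26 vehicle and 22 Xevinapant AC-like cells. By this call 70.4, 74.2 and 87.1% of vehicle and 51.3 and 62.8% of Xevinapant AC-like cells were cycling, a difference of -20.2 points of the means (exact two-sided permutation test, p = 0.2). No smaller p can be reached with these samples by this form of the test. Unthinned, the means were 96.3 and 90.7%. The call was met by 92 and 81.4% of other tumor cells and by 84.6 and 66.8% of myeloid barcodes. The AC-like shares lie at or below those of the myeloid barcodes, whose shares were also lower with Xevinapant, and no cycling was read from them.

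Whether treatment acted otherwise on AC-like than on other tumor cells was tested with a class by treatment term over the same 5 samples. Of 13888 genes, 1 passed (0.0072%), with 1269 at an unadjusted p under 0.05. It was Dll4, a Notch ligand of endothelial tip cells, at 9.16, 13 and 5.87 CPM in the vehicle samples and 2.48 and 3.96 in the Xevinapant samples in AC-like cells and 474 CPM in endothelial barcodes. The term was -3.25 ± 0.28 (SE, edgeR adjusted p = 0.0468), and without any one vehicle sample it was not called. Dll4 was under the level set for named genes and is given because it was the only call. With the limits of the other tumor cells applied to AC-like cells the term was -0.97 ± 0.40 (edgeR adjusted p = 0.504). No astrocyte gene passed. The medians of the term over the genes tested were 0.04 for astrocyte genes and 0.01 for reactive genes, against -0.0175 over all genes. Other lists lay further from 0, with 0.23 for transmitter genes (the rule gene Slc6a11 included) and 0.25 for lipid genes. MES-like (-0.33), OPC-like (-0.30), G1/S (-0.26) and G2 and mitosis genes (-0.29) lay on the other side. These list medians were not tested.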

How the data were processed

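Single cells of orthotopic tumors were measured with a 10X Genomics kit in 2 pools. The authors deposited UMI counts per gene and barcode, 4 matrices per group and 19059 genes, mapped to mm10. Their methods give another Cell Ranger version than the 7.1.0 of the deposited file headers, and name Seurat, Scrublet, DoubletFinder and scDblFinder. The deposited counts are not normalized. Names of the Xevinapant files carry the word Vehicle, and the GEO label was followed. Barcodes were kept with 200 genes or more, mitochondrial UMIs up to 10% and a ratio of log10 genes to log10 UMIs from 0.8 up. Counts were summed per sample over AC-like cells and tested with edgeR 4.0.16 (TMM, filterByExpr, quasi-likelihood, Benjamini-Hochberg threshold 0.05), with DESeq2 1.42.0 as an alternative. Ratios between classes used CPM + 1. On simulated counts with 200 genes changed, the 5-sample test over 12324 genes recovered 73% of genes changed by 1 log2 unit and 100% of those changed by 2. In the measured data, changes of this size were seen without a call over the 5 samples. Adgrl4 had a log2 fold change of -2.97 ± 0.38 and Kif11 of -1.08 ± 0.12, both with an edgeR adjusted p of 0.111. Whether the same recovery holds at the spread of the measured counts was not tested. The 0 calls therefore do not show that such changes were absent. Gene positions came from GENCODE (GRCm38) and were found for 19048 genes, and promoter sequences came from RefSeq (GRCm38.p6). Shares were compared with exact permutation tests in scipy 1.17.1. Doublets were kept, but were scored with Scrublet and the highest 0.8% per 1000 barcodes removed in one alternative.

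Named genes were the markers, the study's AC-like genes, Trp53, Nf1, Birc2, Birc3, Xiap, the 20 highest and 10 lowest ratios at 50 CPM or more, the 5 of smallest p since none passed, any class by treatment call and the 10 of highest Fano factor. Genes that chose or limited a class were left out of these ratios, and the 4 rule genes of the counts by list. Other genes are examples from lists, and a few list members are not reported here. The members and lists were chosen with earlier results of these data known. Alternatives were other tests, scalings, filters, thresholds, denominators, samples and matrices left out or kept apart. Limits of the other tumor cells on AC-like cells were added after seeing the data. AC-like totals were 5699436 to 21915612 UMIs per sample.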

Additional observations from a re-analysis of the deposited data

Results flagged for a closer look

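The treatment effect on Dll4 differed between AC-like and other tumor cells by -3.25 on the log2 scale (edgeR adjusted p = 0.0468), because it was lower with Xevinapant in AC-like cells and higher in other tumor cells. AC-like sums held 9.16, 13 and 5.87 CPM in the vehicle samples and 2.48 and 3.96 in the Xevinapant samples, and other tumor sums 2.58, 2.55 and 1.38 CPM in the vehicle samples and 4.72 and 10.2 in the Xevinapant samples. The 9 measured endothelial markers moved with it in AC-like cells, at 75.7 to 118 CPM in vehicle and 33.7 to 44.9 in Xevinapant samples. With the limits of the other tumor cells applied, the term was -0.97 (edgeR adjusted p = 0.504). Groups of 3 and 2 samples are too small to test for single outlying samples.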

How the results depend on the processing

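The 0 genes called by treatment became 240 (116 higher) without the low-count filter, 668 with each matrix as 1 mouse, 311 with DESeq2 and 16 without the highest doublet scores. Of these 16, 15 fell, all but 1 of them above 100 CPM in endothelial barcodes, and Cebpd rose. Without 1 sample the count was 0 to 1, the 1 being Npvf without Xevinapant B. Library size scaling, thinned sums, all 4 markers, cells free of other-type UMIs and the added limits left 0. The single class by treatment call became 0 under library size scaling and under the added limits, 3 without the low-count filter, and 0 to 74 without 1 sample (0 without any one vehicle sample, 3 without Xevinapant A, 74 without Xevinapant B, where the lone Xevinapant sample is assumed to vary like the vehicle samples). With each matrix as 1 mouse the 1 call was Mmd2 (log2 0.63, edgeR adjusted p = 0.0261), not Dll4. Genes at least 2-fold lower in AC-like cells were 31, and 182 without the highest doublet scores. The share difference was -0.293 points over all barcodes past the quality filters and -0.128 to 2.85 without 1 sample. The cycling difference was -18.5 points with each matrix as 1 mouse (exact permutation p = 0.0286, the smallest possible), -5.55 without thinning, and -26 to -14.5 without 1 sample. The chromosome profiles correlated at 0.87 with the myeloid and 0.95 with the endothelial reference. Log2 fold changes that changed sign ran, without 1 sample, from -0.0341 to 0.69 for Agt, -0.32 to 0.33 for Aqp4, -0.0512 to 0.32 for Birc2, -0.0887 to 0.16 for Id4, -0.035 to 0.22 for Mlc1, -0.0978 to 0.0142 for Nf1, -0.0502 to 0.13 for Trp53. Aqp4 was also 0.0642 in cells free of other-type UMIs and Id4 -0.0633 without the highest doublet scores. None of these 7 genes passed under any setting. The cause of these shifts was not tested. No paired analysis was possible because the labels give no replicate numbers shared by the groups. The smallest sum held 5699436 UMIs, and thinning to it left the treatment count at 0.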

Other observations

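The neural matrix genes Ncan, neurocan (6.42-fold, log2 ratio 2.68 ± 0.45), and Tnc were higher than in other tumor cells in every sample, as were the laminin gene Lamb2 (4.87-fold, log2 ratio 2.28 ± 0.33) and the laminin receptor gene Itga7 (5.27-fold, log2 ratio 2.40 ± 0.31). Tnr, tenascin-R (log2 ratio -1.31 ± 0.31), and the cartilage collagens Col9a1 (-1.08 ± 0.38), Col11a1 (-0.92 ± 0.39) and Col11a2 (-1.01 ± 0.36) were on the low side. All 4 were also below the myeloid barcodes on average, with 475 against 694 CPM for Col9a1. Of 26 matrix genes at the level limit, 8 were at least 2-fold higher in every sample and 0 lower, or 7 and 0 of 23 without Ncan and the other two that chose the other tumor cells. The median log2 ratio of the list was 0.49, and -0.18 with the limits of the other tumor cells applied. Under those limits fibroblast and endothelial marker sums in AC-like cells were lower too.

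Of the renin and angiotensin list, 0 of 6 genes at the level limit were higher, with the rule gene Agt left out. The converting enzyme Ace averaged 5.17 CPM in AC-like cells and 79.1 in endothelial barcodes. The ependymal list had 2 genes at that level, Foxj1, a factor of motile cilia (3.95-fold, log2 ratio 1.98 ± 0.22), and Rarres2, chemerin (7.44-fold, log2 ratio 2.89 ± 0.32), both higher in every sample. Of 17 heat shock genes 2 were higher, the small heat shock proteins Hspb8 and Cryab (7.59-fold, log2 ratio 2.92 ± 0.28). None of these genes passed the test of treatment over 5 samples. The brain gene Mmd2, found after its value was seen, was at 346.6 CPM in AC-like cells and 66.7 in other tumor cells, and its treatment difference was -0.11 (edgeR adjusted p = 0.803).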
